A study of Mus musculus with 32 samples.

Results

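Collagen genes were taken from a mouse expression array as every probe whose gene name reads Col, a number, the letter a and a number. The rule found 67 probes of 43 genes among 55681 probes. Of the 43 genes, 24 had a probe whose spots the scanner program marked as well above background in every sample of some group, and 29 of the 67 probes met this. The other 19 genes, 8 of them above background in no sample at all, are counted below. Values are given only for Col8a2, Col12a1, Col15a1 and Col28a1 of these, and no fold is given for them.

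The samples came from Balb/c mice, males of 6 to 8 weeks, and from tumor cells. Endothelial, Ito and Kupffer cells were isolated either from livers that carried metastases of C26 cells, a Balb/c colon carcinoma line injected into the spleen (tumor microenvironment, TME), or from livers of mice injected with PBS (control). The livers were taken 14 days after injection by the text of the study and 15 by its drawing, digested with collagenase, separated on density gradients, with adherence for the Kupffer cells, and cultured for no more than a day. Tumor liver metastasis cells (TM) and colorectal cancer (CRC) primary cells (TP) made up the other pair of groups, and how they were isolated and cultured is not given in the sources used here. Each of the 8 groups had 4 samples. The fractions were enriched cells of an animal model that rests on 1 tumor line, and the labels do not say how many mice gave a sample.

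Each of the 16 arrays carried 2 samples. Control and TM samples were labelled with Cy3 and TME and TP samples with Cy5, with no exchange of dyes, so that dye and condition cannot be told apart in the comparisons of TME with control and of TP with TM. Comparisons between cell types were made within a dye. Endothelial and Ito samples shared 1 slide, and Kupffer and tumor samples shared the other, so that slide and cell type cannot be told apart between these pairs. Values are log2 of the deposited normalized intensity, and a level is compared between samples for the same probe, never between probes. A probe is said to have risen, fallen or been called where limma's adjusted p, corrected over all 55681 probes, was under 0.05. Numbers in parentheses after a log2 difference are its standard error (SE), where marked, and that adjusted p. In samples of many cells, fewer cells of a type and less RNA per cell cannot be told apart.

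Several libraries stood apart or close together in ways that touch the collagens. Control endothelial replicates 1 and 4, and likewise 2 and 3, differed by less than the noise between repeated spots of an array. Each pair was counted as 1 sample in the SD and n given with a mean, so that n = 2 there. The limma fits kept all 4 as separate samples unless averaging is stated. Their adjusted p in comparisons with this group therefore rests on these like samples. On array 4 of the Ito and of the Kupffer cells the difference of TME and control ran against that of the other arrays, with a correlation across probes, which are not replicates, of -0.66 and -0.60. Control Ito replicate 4 lay closest to TME Ito replicate 1, and control Kupffer replicate 4 closest to TME Kupffer samples. In turn, TME Ito replicate 4 lay closest to control Ito replicate 1, and TME Kupffer replicate 4 closest to control Kupffer replicate 1. The labels were kept, and the results that rest on these arrays are given with and without them. TME Ito replicate 2 and control Kupffer replicate 3 lay far from their groups, and TM replicates 1 and 4 lay closer to the TP samples than TM replicates 2 and 3 did. The 2 slides and 4 arrays per group limit the precision, no spot was saturated, and between 38.4 and 57.1% of spots per sample were well above background.

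The labels were checked against marker genes. The 9 measured Kupffer cell markers were all highest in TME Kupffer cells. Their mean, however, was 12.09 to 13.50 in control Ito and 12.14 to 13.99 in control Kupffer cells. Of 12 sinusoidal endothelial markers, 7 were highest in control endothelial cells, 0 in TME endothelial cells and 3 in TME Kupffer cells. Their mean was 12.02 to 12.26 in control endothelial, 11.36 to 11.67 in control Ito and 10.77 to 11.47 in control Kupffer cells. Of 11 measured stellate cell markers, 8 were highest in control endothelial cells and 0 in either Ito group, while Lrat and Gfap, which define stellate cells, were not above background on all 4 arrays of any group. The mean level of the stellate list was 8.90 to 9.52 in control endothelial cells, 7.67 to 8.04 in control Ito cells and 7.65 to 9.47 in TME Ito cells. All 10 hepatocyte markers were highest in the Ito groups, where their mean was 11.21 to 12.82, against 8.24 to 9.49 in the endothelial samples. The study, by contrast, reported high purity of every fraction from staining for a marker protein of each cell type, which measures protein and not RNA. Given these RNA values, the samples labelled Ito are called by their label and not as stellate cells. The other fractions are likewise named by their label.

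Collagens are built of chains in which glycine recurs at a fixed spacing, and the chains wind into a triple helix. Fibrillar collagens (types I, III and V) form the fibers of scar and stroma, type IV forms the sheet of the basement membrane, types VI and VII form beaded filaments and anchoring fibrils, and FACIT collagens (types IX, XII, XIV, XVI and others) sit on the surface of fibers. In the healthy liver little fibrillar collagen is laid down, Ito cells are known as its main source after injury, and sinusoidal endothelial cells make type IV chains. In tumors, collagen is made mostly by fibroblasts and in part by the tumor cells themselves.

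The glycine repeat is visible in the probes. Of the 67 collagen probes, 4 (5.97%) held at least 4 codons of the form GGN spaced by 9 bases, against 29 of all 55681 probes (0.0521%). A pair of these is shown, since each measured its gene beside a probe without the repeat, and the probes of a gene are compared below. The capitals mark the longest unbroken run of GGN codons spaced by 9 bases, and such codons encode glycine. GGN codons outside that run, as in the first part of the Col14a1 probe, are left in lower case. The sequences are those deposited with the array, in the orientation of the transcript.
Col14a1 (mm9, chr15:55347733-55347792, + strand): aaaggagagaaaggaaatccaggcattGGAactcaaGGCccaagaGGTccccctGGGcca
Col16a1 (mm9, chr4:129756457-129756516, + strand): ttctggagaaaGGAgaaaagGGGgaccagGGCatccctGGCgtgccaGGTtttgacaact

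The starts of 5 genes are shown because the results turn on them: Col1a2, Col16a1, Col8a1 and Col4a5 were high in the tumors, and Col4a6, the neighbour of Col4a5, was not. Each sequence is the 250 bases before the transcription start in RefSeq, 5′ to 3′ on the strand of the gene, and capitals mark, on either strand, the CCAAT box (ATTGG when reversed), the GC box GGGCGG (reversed as CCGCCC) and the TATA box TATAAA (reversed as TTTATA).
Col1a2 (GRCm38.p6, chr6:4505368-4505617, + strand): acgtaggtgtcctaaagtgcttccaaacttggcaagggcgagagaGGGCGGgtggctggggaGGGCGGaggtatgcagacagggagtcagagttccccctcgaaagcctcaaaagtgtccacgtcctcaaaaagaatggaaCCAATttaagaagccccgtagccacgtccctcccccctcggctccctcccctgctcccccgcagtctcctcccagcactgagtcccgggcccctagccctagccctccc
Col16a1 (GRCm38.p6, chr4:130047590-130047839, + strand): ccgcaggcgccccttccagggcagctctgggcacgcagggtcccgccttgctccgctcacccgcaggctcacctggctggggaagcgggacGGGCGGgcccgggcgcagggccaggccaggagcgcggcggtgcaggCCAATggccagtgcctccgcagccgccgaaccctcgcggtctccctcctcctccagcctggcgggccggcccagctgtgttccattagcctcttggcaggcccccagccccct
Col8a1 (GRCm38.p6, chr16:57754738-57754987, - strand): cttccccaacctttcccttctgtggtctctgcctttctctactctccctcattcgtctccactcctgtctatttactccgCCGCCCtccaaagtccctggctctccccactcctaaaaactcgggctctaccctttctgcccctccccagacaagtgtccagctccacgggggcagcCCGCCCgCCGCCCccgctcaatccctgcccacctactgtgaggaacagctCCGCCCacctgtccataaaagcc
Col4a5 (GRCm38.p6, chrX:141475169-141475418, + strand): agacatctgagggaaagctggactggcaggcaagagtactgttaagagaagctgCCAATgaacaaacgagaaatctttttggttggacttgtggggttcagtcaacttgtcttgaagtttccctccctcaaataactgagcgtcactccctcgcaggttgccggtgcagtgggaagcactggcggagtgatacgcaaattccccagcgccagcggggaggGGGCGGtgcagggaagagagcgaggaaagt
Col4a6 (GRCm38.p6, chrX:141474077-141474326, - strand): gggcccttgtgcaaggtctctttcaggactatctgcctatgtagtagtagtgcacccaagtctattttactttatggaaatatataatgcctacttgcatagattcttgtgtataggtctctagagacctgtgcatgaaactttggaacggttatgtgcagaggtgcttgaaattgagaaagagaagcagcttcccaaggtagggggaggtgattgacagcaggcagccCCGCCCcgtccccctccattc

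The promoter table matched 35 of the 43 collagen genes, with 38 starts. CCAAT occurred in 34.2% of the collagen promoters and 33.8% of all 32851, TATAAA in 13.2 and 12.4%, and GGGCGG in 57.9 and 32.7%. These are matches of letters only, and all 5 promoters shown held GGGCGG while none held TATAAA. Col4a5 and Col4a6 face away from each other on chromosome X with starts 1343 bases apart, and Col4a1 and Col4a2 do so on chromosome 8 with starts 21 bases apart.

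Across the classes, 6 of 11 fibrillar genes, 6 of 9 basement membrane and network genes, 6 of 8 beaded filament and anchoring genes, 4 of 9 FACIT genes, 1 of 2 multiplexins and 1 of 4 transmembrane genes had a probe above background on all 4 arrays of a group. The genes without one included Col2a1, Col9a1, Col9a3, Col10a1, Col11a1 and Col11a2, which are collagens of cartilage. Of these, Col9a1 was well above background in 15 samples and Col11a2 in 8. Col9a2, the remaining type IX chain, was above background on all 4 arrays of TME Kupffer cells. The number of collagen genes above background on all 4 arrays was lowest in control Kupffer cells, at 16, and highest in control endothelial cells, at 21.

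**Figure D1:**
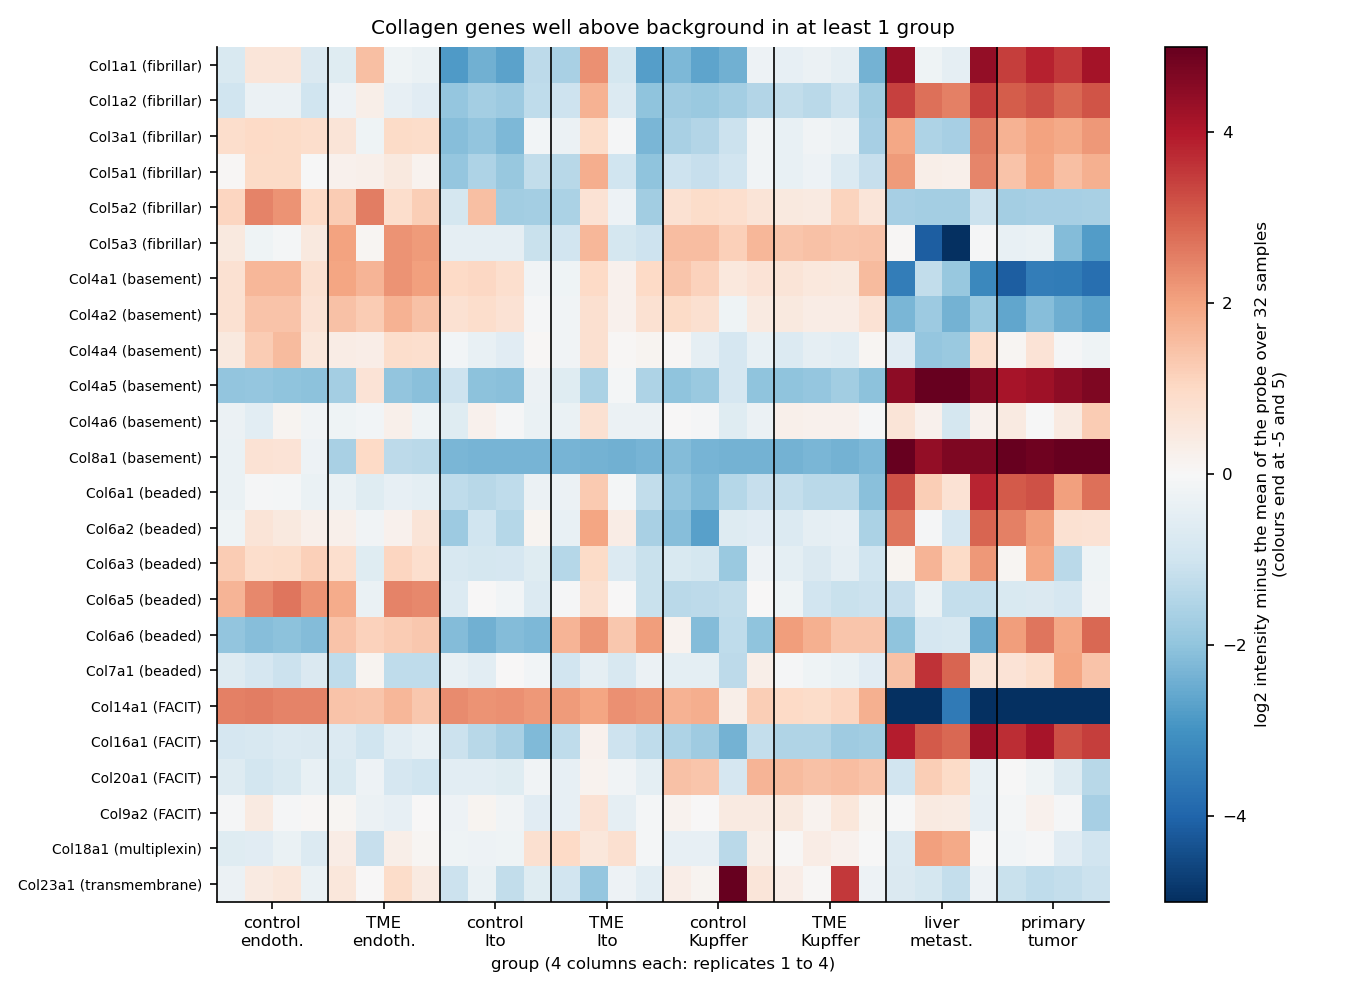
Log2 intensity of the 24 collagen genes above background, minus the mean of each probe over the 32 samples, with genes in rows (class in brackets) and samples in columns by group. The colours end at -5 and 5. Col8a1, Col4a5 and Col16a1 are high in all 8 tumor samples and Col14a1 is low there, while the endothelial, Ito and Kupffer samples differ less.

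The first question was what the collagens did in liver cells when the liver carried metastases. Of the 67 collagen probes, 1 rose and 0 fell in each of the cell types, and in each it was the same probe of Col6a6, a chain related to type VI collagen. Over all probes 1.14% were called for the endothelial cells, 0.289% for the Ito cells and 0.436% for the Kupffer cells. The median difference of the collagen probes was 0.00, 0.09 and 0.06 on the log2 scale, against 0.01, 0.00 and 0.00 for all probes. Before adjustment, 6, 7 and 4 collagen probes had a p under 0.05. No collagen probe was called as changing by a different amount between cell types (limma, 0 of 67 for each pair), where 0, 1 and 3 probes had an unadjusted p under 0.05 for Ito against endothelial, Ito against Kupffer and Kupffer against endothelial, and 0.111, 0.00359 and 0.0808% of all probes were called. This does not show that the cell types changed alike, and with only the groups compared 1 probe was called for Ito against endothelial cells.

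The fibrillar genes Col1a1 and Col1a2, which encode the chains of type I collagen, varied widely within the liver cell groups. Col1a1 was 5.07, 5.51, 5.24 and 6.62 in control Ito replicates 1 to 4 and 6.29, 10.19, 7.05 and 5.18 in TME Ito replicates 1 to 4. On arrays 1 to 3 the TME sample was the higher one, on array 4 the control sample was, and the value of TME Ito replicate 2 lay far above the others. Col1a2 was 10.01, 10.27, 10.15 and 10.69 in control and 10.92, 13.69, 11.25 and 9.95 in TME Ito cells, with the same order on each array. The differences over all arrays were 1.57 for Col1a1 (SE 0.98, limma adjusted p = 0.611) and 1.17 for Col1a2 (SE 0.44, limma adjusted p = 0.378), and neither passed the test.

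Col3a1, the chain of type III collagen in the reticular fibers of the liver, was 9.31, 9.46, 9.18 and 11.31 in control Ito and 11.13, 12.35, 11.39 and 9.14 in TME Ito cells. Col5a1, a chain of type V collagen that starts type I fibrils, was 7.17, 7.55, 7.21 and 7.88 in control and 7.72, 10.94, 8.12 and 7.11 in TME Ito cells. For these genes and for Col6a1 and Col6a2, chains of type VI collagen, the TME sample was higher on arrays 1 to 3 and lower on array 4, and the groups overlapped. The differences of the 4 genes lay between 0.98 and 1.18, with limma adjusted p from 0.528 to 0.638. Epithelial markers, of which 3 of 8 genes were measured, had a mean of 12.87 in TME Ito replicate 2 and 8.16 to 8.46 in the other TME Ito samples, and their part in the high collagen values of that sample was not tested. The stellate list was also highest in that sample, at 9.47, and the endothelial and Kupffer lists were lowest in it, at 9.94 and 10.34.

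Array 4 decided the count in Ito cells. Without replicate 4 of every group, 5 of 67 collagen probes were called in Ito cells, 4 higher and 1 lower, while the share of all probes called was 7.83%. The collagen share was thus no higher than that of all probes, and the genes below are described singly. Among them Col1a2 rose by 1.81 (limma adjusted p = 0.024), Col3a1 by 2.30 (0.0299) and Col6a1 by 1.62 (0.0491). When replicate 4 was left out of Ito and Kupffer cells only, a choice made after seeing the data, the count was 3, with Col1a2 among them (0.0137) and Col3a1 at an adjusted p of 0.055. Without replicate 2, whose TME sample held the highest values, the difference of Col1a2 was 0.42 and that of Col3a1 0.62.

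**Figure D2:**
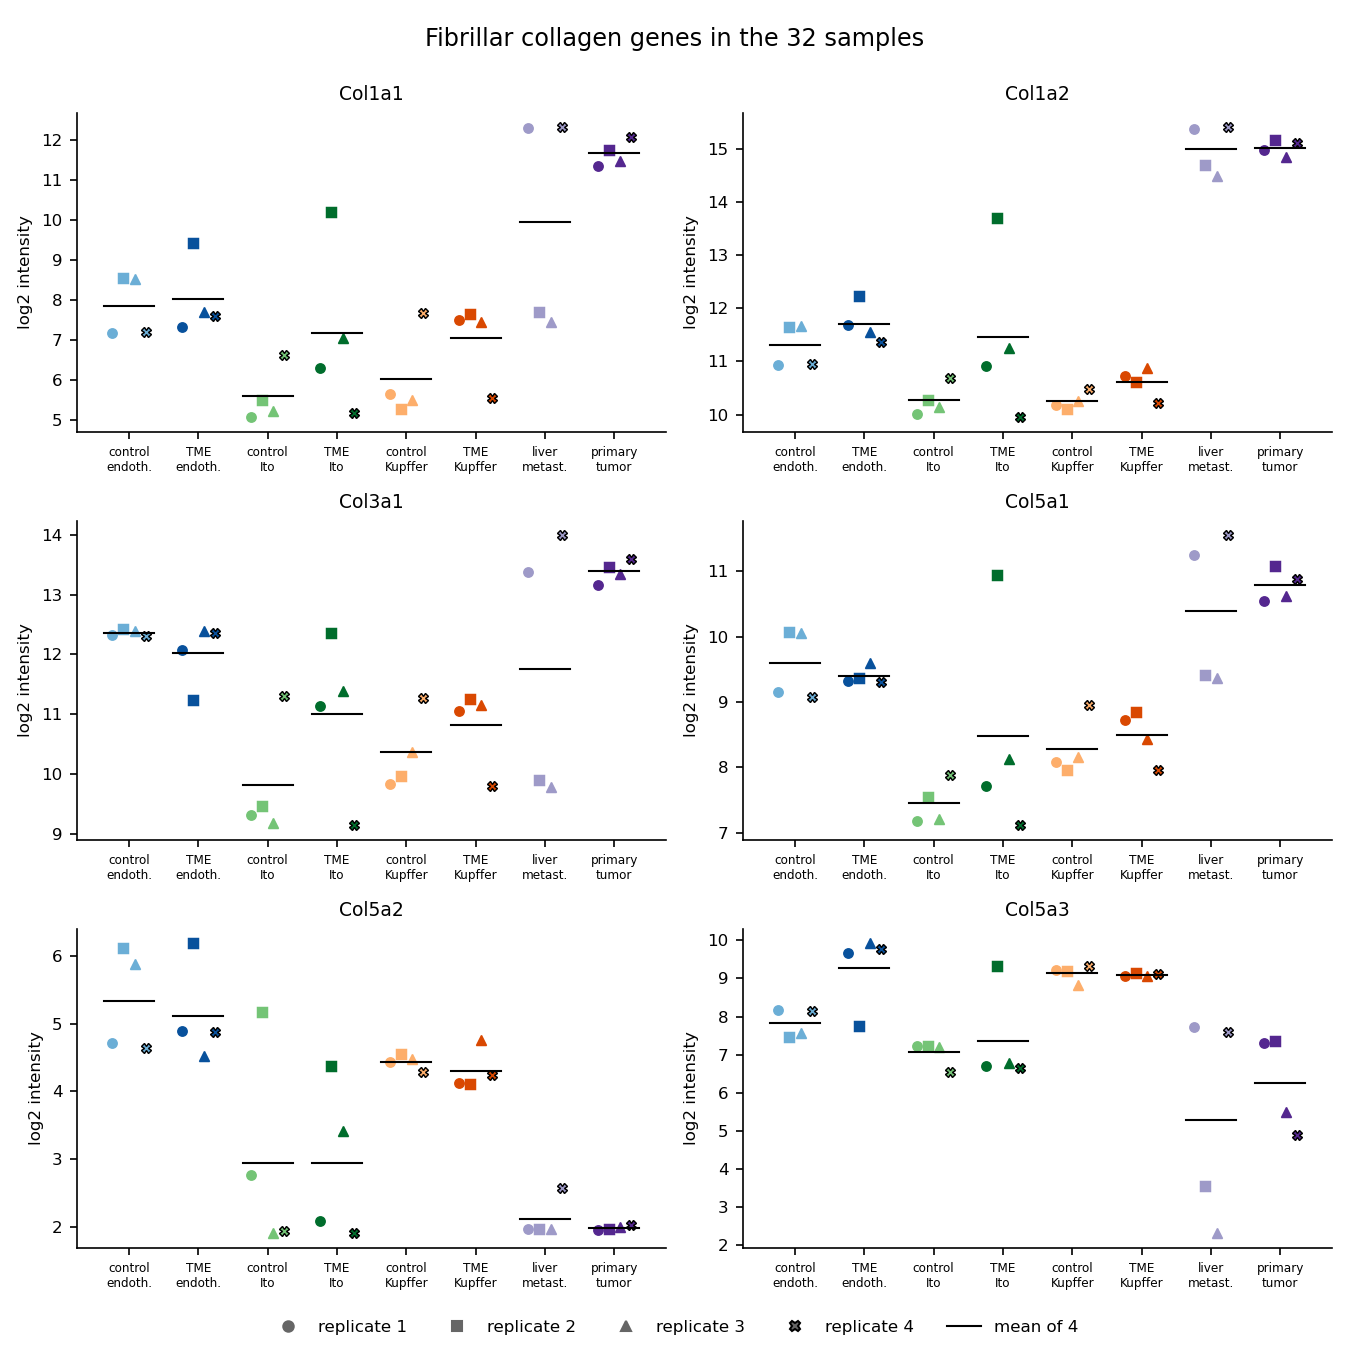
Log2 intensity of 6 fibrillar collagen genes in each sample, by group, with a marker for each replicate number (replicate 4 is the outlined x) and a line at the mean of the 4 samples. In control Ito and Kupffer cells replicate 4 of Col1a1 is the highest sample and in the TME cells it is the lowest, and for Col1a1 and Col3a1 TM replicates 1 and 4 reach the level of the TP samples while replicates 2 and 3 do not.

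In Kupffer cells the same genes behaved alike. Col1a1 was 5.66, 5.29, 5.50 and 7.67 in control and 7.51, 7.64, 7.45 and 5.56 in TME Kupffer cells, so that replicate 4 of each group held a value near the range of the other. Col3a1 was 9.83, 9.97, 10.37 and 11.27 in control and 11.06, 11.25, 11.16 and 9.79 in TME Kupffer cells. No fibrillar gene passed the test there, with or without array 4, and without replicate 4 the difference of Col1a1 was 2.05 (limma adjusted p = 0.348) where 3.45% of all probes were called.

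In endothelial cells the type I and III chains did not separate by condition. Col1a1 was 7.17, 8.54, 8.53 and 7.20 in control and 7.33, 9.43, 7.70 and 7.60 in TME endothelial cells, and Col3a1 was 12.32, 12.43, 12.39 and 12.31 against 12.08, 11.23, 12.40 and 12.36. The values of control replicates 1 and 4 and of 2 and 3 were nearly the same, as across the rest of the array. Col5a3, a type V chain, was 8.17, 7.47, 7.57 and 8.14 in control and 9.67, 7.76, 9.92 and 9.78 in TME endothelial cells, higher in TME on 4 of 4 arrays but not past the test (1.45, limma adjusted p = 0.849). TME endothelial replicate 2, the low sample, also stood apart in its epithelial markers, at 9.70 against 7.41 to 7.47 in the other TME endothelial samples.

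Among the network collagens, Col4a1 and Col4a2, the chains of the common type IV network, were measured on every array. Col4a1 was 12.97, 13.86, 13.86 and 12.99 in control and 14.18, 13.87, 14.44 and 14.26 in TME endothelial cells. The TME sample was the higher one on 4 of 4 arrays, by 0.77 in the mean, and the difference did not pass the test (SE 0.40, limma adjusted p = 0.72). Col4a1 was 13.17, 13.23, 13.03 and 12.01 in control and 11.97, 13.18, 12.41 and 13.20 in TME Ito cells. It was 13.57, 13.35, 12.72 and 12.86 in control and 12.83, 12.73, 12.69 and 13.79 in TME Kupffer cells. In both cell types the TME sample was lower on arrays 1 to 3 and higher on array 4, and Col4a2 in Ito cells followed the same order.

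Of the FACIT collagens, Col14a1, which encodes a collagen that binds to the surface of type I fibrils, separated by condition in endothelial cells. It was 10.59, 10.61, 10.52 and 10.54 in control and 9.50, 9.45, 9.71 and 9.39 in TME endothelial cells, which do not overlap. The mean was 10.57 ± 0.00 (SD, n = 2) against 9.51 ± 0.14 (SD, n = 4), a difference of -1.05 that did not pass in the fit of all 8 groups (SE 0.33, limma adjusted p = 0.172). The adjusted p was between 0.00076 and 0.825 under the other settings tried, being 0.00076 when only the endothelial samples were fitted, 0.0188 with the shared array as a block and 0.764 with the control pairs averaged. Its level in Ito cells, 10.32 ± 0.08 in control and 10.20 ± 0.14 in TME (SD, n = 4 each), differed by less than in endothelial cells, but that difference between cell types was not called.

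**Figure D3:**
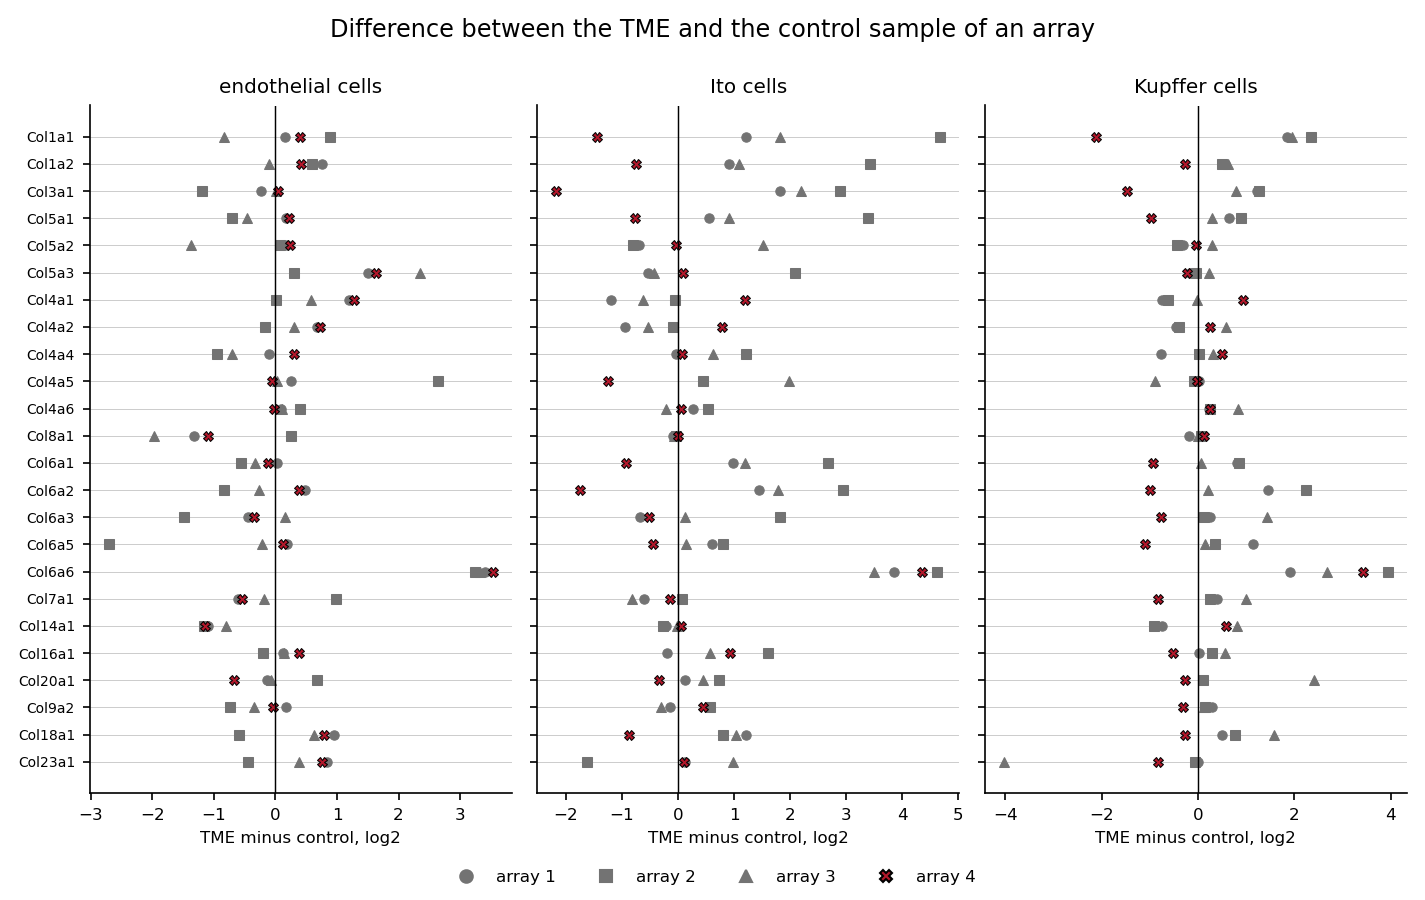
Difference of log2 intensity between the TME and the control sample of the same array for 24 collagen genes, with a panel for each cell type and array 4 drawn as a red x. Array 4 of the Ito and Kupffer cells lies on the other side of 0 from arrays 1 to 3 for Col1a1, Col3a1 and Col4a1, and Col6a6 is above 0 on every array.

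Col6a6 was the member called in every comparison of a Cy5 with a Cy3 group. The probe lies on chromosome 9 (mm9, 105676597 to 105676655, minus strand). It was 2.37, 2.23, 2.29 and 2.18 in control and 5.76, 5.48, 5.61 and 5.70 in TME endothelial cells, and 2.19, 1.92, 2.18 and 2.08 in control and 6.04, 6.54, 5.67 and 6.44 in TME Ito cells. It was 4.50, 2.17, 3.07 and 2.31 in control and 6.42, 6.11, 5.74 and 5.74 in TME Kupffer cells, and 2.34, 3.50, 3.54 and 1.86 in TM and 6.42, 7.0, 6.28 and 7.20 in TP cells. The groups did not overlap in any pair, and array 4 ran the same way as the others. The 4 pairs have the dye in common and not the condition, since TP and TM are both tumor cells, so that the dye and the difference cannot be told apart.

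The fitted differences of Col6a6 were 3.37 for the endothelial, 4.08 for the Ito, 2.99 for the Kupffer and 3.92 for the tumor cells (limma adjusted p = 3.33e-06, 1.07e-07, 2.29e-05 and 5.46e-08). The Cy3 samples were not well above background, except for 1 control Kupffer sample, so that TME endothelial cells were at least 1.66-fold, TME Ito cells at least 1.81-fold and TP cells at least 1.85-fold higher. Such a bound sets the mean of the measured group against the lowest signal well above background on the arrays of the other group, after loess and Aquantile normalization. With an offset of 50 before the log scale was taken, the differences were between 0.77 and 1.29. With the shared array as a fixed block the adjusted p was 0.00351 for the endothelial, 0.178 for the Ito, 0.361 for the Kupffer and 0.211 for the tumor cells. Another probe of Col6a6 was well above background in no sample. Of all 55681 probes, 36 (0.0647%) were called higher in all 4 Cy5 groups.

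**Figure D4:**
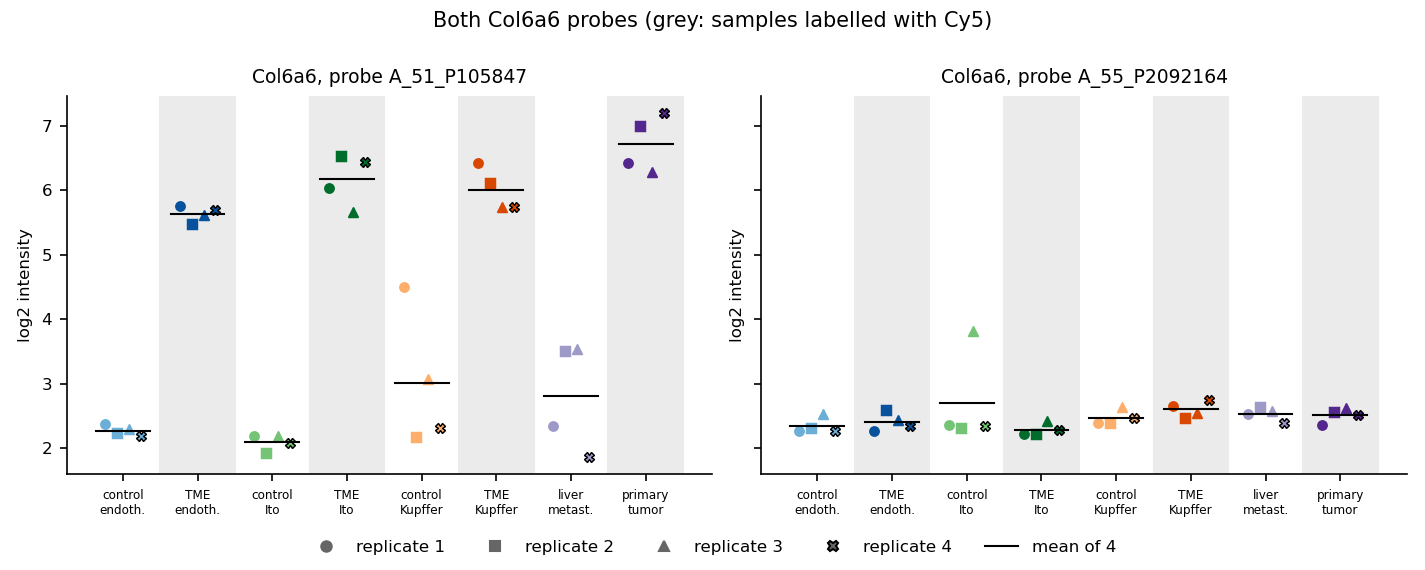
Log2 intensity of both Col6a6 probes in every sample by group, with the Cy5 groups on a grey background and a marker for each replicate number. One probe lies between 5.48 and 7.20 in all Cy5 samples and at 4.50 or below in all Cy3 samples, and the other lies between 2.21 and 3.81 throughout.

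The second question was which liver cells carried the collagens. Between control Ito and control endothelial cells 0 collagen probes were higher and 6 were lower in Ito cells (8.96%), where 9.89% of all probes were called and 5.72% were lower. Between the TME groups 0 were higher and 5 lower in Ito cells (7.46%), where 8.26% of all probes were called and 4.78% were lower. Thus no collagen was called higher in the cells labelled Ito than in endothelial cells in either condition, and the shares were near those of all probes. This pair was compared within a slide and a dye.

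Col8a1, a short-chain network collagen of vessels, was 4.08, 5.14, 5.08 and 4.17 in control endothelial cells and 2.14, 2.10, 2.08 and 2.09 in control Ito cells. The groups were apart, the Ito samples were not above background, and the level was at least 1.37-fold lower in Ito cells (limma adjusted p = 1.76e-05). Col6a5, a type VI related chain, was 5.23, 5.91, 6.22 and 5.78 in control endothelial and 2.85, 3.53, 3.39 and 2.86 in control Ito cells, at least 1.55-fold lower there (limma adjusted p = 0.000295). In the TME samples Col6a5 was at least 1.17-fold lower in Ito cells (0.0192). Col8a1 was called lower there too (0.00493), but only 1 of 4 TME endothelial samples was above background. TME endothelial replicate 2 lay at 3.20 for Col6a5, inside the Ito range.

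The fibrillar genes Col3a1, Col5a1 and Col5a2 were also lower in control Ito than in control endothelial cells. Col3a1 lay between 12.31 and 12.43 in control endothelial and between 9.18 and 11.31 in control Ito cells, a difference of -2.55 (SE 0.73, limma adjusted p = 0.0232). Col5a1 differed by -2.14 (SE 0.55, 0.0108) and Col5a2, a further type V chain, by -2.40 (SE 0.54, 0.00407), and for Col5a2 a control Ito sample at 5.17 lay inside the endothelial range and was the 1 of 4 control Ito samples above background. Col6a3, the long chain of type VI collagen, differed by -1.83 (SE 0.54, 0.0291). When each like pair of control endothelial samples was averaged, a choice made after seeing the data, Col5a2 (0.0408), Col6a5 (0.00732) and Col8a1 (0.00074) were still called, and Col3a1 (0.144), Col5a1 (0.0844) and Col6a3 (0.163) were not, while 4.30% of all probes were.

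In the TME samples the type IV chains were lower in Ito than in endothelial cells, with differences of -1.50 for Col4a1 (SE 0.40, limma adjusted p = 0.0168) and -1.09 for Col4a2 (SE 0.25, 0.00591). Without replicate 1, 1 of the 5 calls was made, and the adjusted p of Col4a1 was then 0.144 and without replicate 3 it was 0.165. Col5a2 was at least 1.33-fold lower in TME Ito cells (0.0111). Fibroblast markers, of which 10 of 10 genes were measured, had a mean of 9.12 to 9.31 in control endothelial cells and 8.25 to 9.09 in control Ito cells, with 5 of them highest in control endothelial cells. Kupffer cell markers had a mean of 10.69 to 10.94 in control endothelial and 12.09 to 13.50 in control Ito cells. The stellate list had a mean of 8.90 to 9.52 in control endothelial and 7.67 to 8.04 in control Ito cells. The part of any of these lists in the collagen differences was not tested.

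Against Kupffer cells, which lay on the other slide, control endothelial cells had 10 collagen probes higher and 2 lower (17.9%), where 21.0% of all probes were called. With the like control endothelial samples averaged, 4 were higher and 1 lower (7.46%), where 13.0% of all probes were called. TME endothelial cells had 5 higher and 3 lower (11.9%), where 21.8% were. Control Ito cells had 2 higher and 4 lower than control Kupffer cells (8.96% against 14.8%), and TME Ito cells 0 higher and 2 lower than TME Kupffer cells (2.99% against 15.2%). Col20a1, a FACIT collagen, was lower than in Kupffer cells in all 4 comparisons with both of its probes. One of them was 8.55, 8.45, 6.23 and 8.79 in control and 8.65, 8.56, 8.63 and 8.52 in TME Kupffer cells, against 6.07 to 7.27 in all endothelial and Ito samples. Only control Kupffer replicate 3, which stood apart across the array, fell into the range of the other cells. Without replicate 4 of every group the adjusted p of this probe was 0.144 (control Ito), 0.0414 (TME Ito), 0.0625 (control endothelial) and 0.00541 (TME endothelial), and that of the other probe was between 0.000563 and 0.0298.

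Col23a1, a transmembrane collagen, was 5.39, 5.19, 12.64 and 5.67 in control and 5.39, 5.13, 8.61 and 4.83 in TME Kupffer cells, and its highest values were those of the pair on array 3. Against TM cells its value rests largely on that control sample, since the difference of TM from control Kupffer cells was -2.92 (limma adjusted p = 0.0214) and without replicate 3 it was -0.97 (0.0186).

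The third question was what collagens the tumor cells carried. Against the Kupffer cells of the same slide and dye, TM cells had 16 collagen probes higher and 8 lower (35.8%), where 39.4% of all probes were called, 23.3% higher and 16.2% lower. TP cells had 16 higher and 10 lower (38.8%), where 43.6% of all probes were called, 25.7% higher and 17.8% lower. The shares were near those of all probes, and the median difference of the collagens was 0.08 in TM and 0.04 in TP cells against 0.08 and 0.10 over all probes. The genes below are therefore described for their own size and not as a group that moved. The hepatocyte markers were above background in 0 of 10 genes in TM and TP cells, and of the 10 fibroblast markers 5 were above background on all 4 arrays in TM and 4 in TP cells. The mean of the fibroblast list was 6.77 to 8.77 in TM and 6.64 to 8.81 in TP cells, against 7.19 to 8.16 in the Kupffer samples, and its part in the collagen values was not tested.

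The network collagens split. Col8a1 was 9.43, 8.79, 9.06 and 9.07 in TM and 9.64, 9.29, 9.53 and 10.01 in TP cells, and between 2.04 and 2.25 in all 8 Kupffer samples. Its level was at least 8.30-fold (TM) and at least 11.7-fold (TP) that of the Kupffer cells (limma adjusted p = 3.05e-15 and 6.36e-16). Col4a5, a chain of the type IV network of kidney, lung and smooth muscle, was 8.80, 9.40, 9.65 and 8.94 in TM and 8.45, 8.56, 8.79 and 8.99 in TP cells, at least 7.52-fold and 5.67-fold higher than in Kupffer cells (3.11e-12 and 5.84e-12). Among the 24 liver cell samples Col4a5 was well above background in 1, TME endothelial replicate 2.

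Col4a6, the chain that pairs with Col4a5 in such networks and starts beside it on chromosome X, was 6.42, 5.99, 4.87 and 5.97 in TM and 6.21, 5.75, 6.21 and 7.03 in TP cells. Control Kupffer cells lay between 5.16 and 5.79 and TME Kupffer cells between 5.71 and 6.02, so that the groups overlapped and Col4a6 was not called in TM or TP cells. Col4a1 and Col4a2 fell. Col4a1 was 8.74, 10.97, 10.30 and 8.98 in TM and 8.08, 8.72, 8.69 and 8.43 in TP cells, a difference of -3.38 and -4.52 from Kupffer cells (SE 0.40 each, limma adjusted p = 5.7e-08 and 2.34e-10). Col4a2 was 10.06, 10.54, 9.98 and 10.51 in TM and 9.74, 10.24, 9.91 and 9.68 in TP cells, a difference of -2.58 and -2.95 (SE 0.25 each, 1.82e-09 and 1.21e-10). All tumor samples lay below all liver cell samples for both genes, with the highest tumor value of Col4a1 at 10.97 and the lowest liver cell value at 11.97.

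The fibrillar genes of type I were high in the tumors. Col1a2 was 15.37, 14.70, 14.48 and 15.40 in TM and 14.97, 15.16, 14.84 and 15.10 in TP cells, which is 26.6-fold and 21.3-fold over Kupffer cells (log2 differences of 4.73 and 4.41, SE 0.44, limma adjusted p = 7.82e-10 and 2.53e-09). The lowest tumor sample, at 14.48, lay above the highest liver cell sample, TME Ito replicate 2 at 13.69. Col1a1 was 12.29, 7.70, 7.45 and 12.31 in TM and 11.36, 11.75, 11.47 and 12.08 in TP cells. TM replicates 1 and 4 lay above the TP samples, and TM replicates 2 and 3 lay at the level of control Kupffer replicate 4, at 7.67. The differences of Col1a1 were 3.90 in TM and 4.62 in TP cells (SE 0.98, 0.00177 and 0.000277), and without replicate 1 the adjusted p in TM was 0.0669.

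Col3a1 split the TM samples in the same way, at 13.38, 9.90, 9.78 and 13.99, and was 13.16, 13.47, 13.35 and 13.60 in TP cells. It was called in TP cells only (2.59, SE 0.73, limma adjusted p = 0.00448), and TP did not differ from TM past the test (1.63, 0.251). Col5a1 was 11.25, 9.42, 9.36 and 11.55 in TM and 10.55, 11.09, 10.63 and 10.88 in TP cells, which was higher by 2.11 and 2.30 (SE 0.55 each, 0.0024 and 0.000985). The type V chains Col5a2 and Col5a3 fell. Col5a3, above background in 2 TM and 3 TP samples, was 7.72, 3.55, 2.30 and 7.59 in TM and 7.30, 7.35, 5.50 and 4.89 in TP cells, a difference of -3.86 and -2.83 (SE 0.85 each, 0.000471 and 0.00738). Col5a2 was above background in no tumor sample, and was at least 1.15-fold lower in TM than in control Kupffer cells (0.000921).

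Col6a1, Col6a2 and Col7a1 were higher in both tumors, while Col6a5 and Col6a6 were not called against Kupffer cells and Col6a4 was above background in no sample. Col6a1 was 12.03, 10.06, 9.57 and 12.65 in TM and 11.89, 12.02, 10.88 and 11.58 in TP cells, higher by 3.93 and 4.25 (SE 0.50 each, limma adjusted p = 2.32e-07 and 5.43e-08). Col6a2 was 8.59, 5.86, 5.08 and 8.84 in TM and 8.43, 8.01, 6.69 and 6.64 in TP cells, higher by 2.68 and 2.30 (SE 0.73 each, 0.00378 and 0.0113). TM replicates 2 and 3 were again the low samples for both. Col6a3 was 7.22, 8.79, 8.04 and 9.27 in TM and 7.20, 9.04, 5.74 and 6.86 in TP cells and passed the test in TM alone (2.17, 0.00168), which does not show that TM and TP differ. Col7a1, the anchoring fibril collagen of epithelia, was 8.13, 10.29, 9.59 and 7.31 in TM and 7.36, 7.53, 8.64 and 8.09 in TP cells, higher by 2.66 and 1.54 (SE 0.44 each, 1.43e-05 and 0.00557), and here TM replicates 2 and 3 were the high ones.

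Among the FACIT collagens, Col16a1 rose and Col14a1 fell. Col16a1, a collagen at the edge of fibrils, was 10.82, 9.95, 9.76 and 11.15 in TM and 10.58, 11, 10.10 and 10.32 in TP cells, against 4.53 to 5.68 in all Kupffer samples, a rise of 5.25 in both (SE 0.32 each, limma adjusted p = 1.63e-13 and 1.38e-13). The probe with the glycine repeat printed above was 6.48, 5.80, 5.36 and 6.88 in TM and 5.91, 6.60, 6.06 and 6.44 in TP cells. It lay between 2.13 and 3.88 in all liver cells, where only 1 sample, of TME endothelial cells, was well above background. Both probes separated the tumor from the liver cells, as did a further probe, at 12.40 to 13.79 in tumor and 7.88 to 9.55 in liver cells. The remaining probe did not, at 4.98, 1.89, 2.07 and 5.08 in TM cells against 3.67 in control endothelial replicate 3.

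Col14a1 was 2.32, 2.72, 4.52 and 2.29 in TM and 2.25, 2.30, 2.41 and 2.29 in TP cells, not above background in any tumor sample, while the Kupffer samples lay between 8.33 and 9.87. It was at least 7.97-fold lower in TM and at least 6.56-fold lower in TP cells (limma adjusted p = 9.86e-15 and 1.58e-15). The probe with the glycine repeat disagreed in size. It was 6.16, 4.95, 5.47 and 5.50 in TM and 5.89, 5.51, 5.33 and 5.46 in TP cells, and it was 2.23-fold and 2.76-fold lower than in Kupffer cells (log2 differences of -1.16 and -1.47), below the bounds of the other probe. The basis of the disagreement was not tested.

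**Figure D5:**
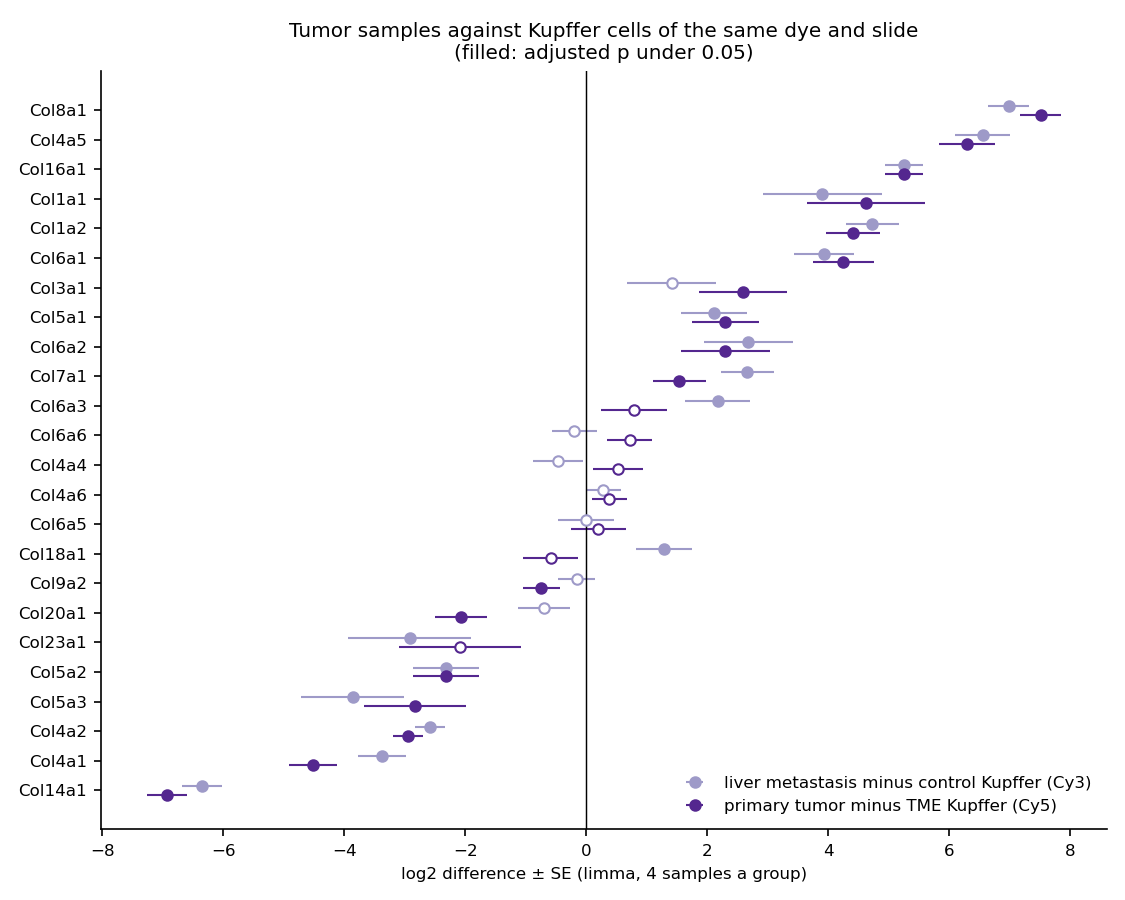
Limma difference in log2 intensity, with its SE, of TM from control Kupffer cells (light, both Cy3) and of TP from TME Kupffer cells (dark, both Cy5) for the collagen genes, with filled points where the adjusted p was under 0.05. Col8a1, Col4a5 and Col16a1 lie far above 0 and Col14a1 and Col4a1 far below it in both comparisons. For Col8a1, Col4a5 and Col14a1 the lower group was not above background, so that their points do not rank the size of the change.

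Of the multiplexins, whose C-terminal pieces can be cut off as endostatin-like fragments, Col15a1 was above background on all 4 arrays of no group with any of its 3 probes, whose values lay between 2.04 and 4.49. Col18a1 was 8.46, 11.20, 11.05 and 9.12 in TM and 9.01, 9.08, 8.60 and 8.19 in TP cells, against 8.72, 8.74, 7.79 and 9.43 in control Kupffer cells. It was called higher in TM cells (1.29, limma adjusted p = 0.0256), although the groups overlapped, and the call rests on TM replicates 2 and 3, since without replicate 2 of every group the difference was 0.90 (0.202) and without replicate 3 it was 0.63 (0.414).

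Between TP and TM cells 4 collagen probes rose and 0 fell in TP cells (5.97%), where 3.01% of all probes were called and 2.05% were higher. The count was 1 under 75th percentile scaling, both normexp settings (another background correction), the filter on dim probes and the fit of these groups only, and 0 with the array as a fixed block. Beside Col6a6, given above with its dye, the called genes were Col8a2, Col12a1 and Col28a1. Col8a2, the partner chain of Col8a1, was 2.24, 3.15, 3.02 and 3.07 in TM and 4.31, 3.62, 4.22 and 4.44 in TP cells (difference 1.28, SE 0.34, limma adjusted p = 0.0359). Col12a1, a FACIT collagen, was 2.84, 2.70, 2.35 and 2.14 in TM and 3.09, 2.61, 5.43 and 5.34 in TP cells (1.61, SE 0.45, 0.048), where 1 TP sample was well above background. Col28a1 differed by 0.44 (SE 0.12, 0.0348). Col8a2 and Col28a1 were above background in no sample of either group, so that no fold is given. The calls of Col8a2, Col12a1 and Col28a1 were not made under any of these settings, nor without replicate 2, 3 or 4 of every group. Col4a1 was lower in TP than in TM on 4 of 4 arrays without passing the test (-1.26, 0.0813).

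The enzymes that process collagen and its receptors were read from lists of 55 probes for processing and 17 for receptors. Procollagen chains are hydroxylated and glycosylated in the endoplasmic reticulum, folded and exported with chaperones such as Serpinh1, trimmed outside the cell and cross-linked by lysyl oxidases. In TM cells 6 of 19 hydroxylation and glycosylation probes were higher and 6 lower than in Kupffer cells, 6 of 12 chaperone and export probes higher and 3 lower, 7 of 24 cleavage and cross-linking probes higher and 6 lower, and 8 of 17 receptor probes higher and 7 lower. In TP cells these counts were 9 and 5, 6 and 1, 8 and 7, and 8 and 7. The percentages of all probes called are those given for the collagens.

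Pcolce, which is not an enzyme itself but speeds the cutting of the C-terminal propeptide, rose by 5.79 in TM and 5.66 in TP cells (limma adjusted p = 6.83e-16 and 9.82e-16). Its relative Pcolce2 fell, with differences of -3.79 and -1.82 (9.83e-05 and 0.0452). Adamts2, which cuts the N-terminal propeptide of types I and III, fell, being above background in 1 of 4 TM samples and in 0 of 4 TP samples, where it was at least 15.7-fold lower (2.29e-08 and 2.45e-09). Another Adamts2 probe, above background in no tumor sample, gave smaller bounds, of 1.1-fold in TM and 1.04-fold in TP cells. Adamts14, which has the same substrates as Adamts2, was not called (-0.56 and -0.62). Leprel2, a prolyl 3-hydroxylase, rose by 4.01 and 3.67, and Lepre1 and Crtap, which form a prolyl 3-hydroxylation complex, rose by 2.25 and 1.99 in TM and by 2.51 and 2.02 in TP cells. Serpinh1, the chaperone of the collagen helix, rose by 1.26 and 2.23 (0.0227 and 0.000112).

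The lysyl oxidases went different ways. Loxl1 rose (2.86e-05 and 8.65e-07), with 1 of 4 control and 2 of 4 TME Kupffer samples above background, and another of its probes exceeded TME Kupffer cells at least 12.4-fold in TP cells. Loxl3 rose by 2.22 and 1.36 and Loxl4 by 2.49 and 2.28 in TM and TP cells. Loxl2 fell with all 3 of its probes, with differences of -2.66 and -2.47 for the probe above background in every tumor sample (5.93e-10 and 2.08e-09). Lox was not above background on all 4 arrays of any group.

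Of the receptors, Ddr2, a tyrosine kinase that binds fibrillar collagen, rose by 2.99 and 3.27 in TM and TP cells. Mrc2, an endocytic receptor for collagen, also rose, with 2 of 4 control and 1 of 4 TME Kupffer samples above background, so that no fold is given. The integrin chains that bind collagen were split. Itga1 was at least 4.24-fold lower in TM and at least 2.66-fold lower in TP cells, and Itga2 at least 1.86-fold and 1.50-fold lower, both above background in no tumor sample. Itga10 rose by 2.45 and 1.79 (3.07e-06 and 0.0002), and Itga11 fell, with its level at least 1.04-fold and 1.05-fold lower (0.0135 and 0.0261). For Itga11, 0 tumor samples, 1 of 4 control and 4 of 4 TME Kupffer samples were above background. Lair1, an inhibitory collagen receptor of leukocytes, fell, with differences of -3.04 and -3.08. All these had limma adjusted p under 0.05 in both comparisons. Another Itga1 probe, above background in all Kupffer samples and in no tumor sample, gave smaller bounds, of 1.29-fold in TM and 1.04-fold in TP cells.

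Between control Ito and control endothelial cells, where 9.89% of all probes were called and 5.72% were lower, the processing lists held 0 probes higher and 7 of 19, 6 of 12 and 7 of 24 lower in Ito cells, and 0 of 17 receptors were higher and 3 lower. Fkbp14, a prolyl isomerase of the endoplasmic reticulum, differed by -2.14 (limma adjusted p = 7.93e-08), Loxl3 by -2.45 (3.32e-05), Itga1 by -2.52 (0.000805), and Leprel1, above background in no control Ito sample, was at least 1.37-fold lower (5.36e-05). Averaging the like control endothelial samples left 14 of these 23 calls. In the TME samples (8.26 and 4.78% of all probes) the counts were 0 higher and 4, 4 and 3 lower for processing and 2 higher and 0 lower for the receptors, the higher ones being Itga2 and Mrc2, of which Mrc2 was above background in no sample of either group.

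Between TME and control cells 2 probes of these lists were called, where 1.14% (endothelial), 0.289% (Ito) and 0.436% (Kupffer) of all probes were. Leprel1 was higher in TME Ito cells (1.61, limma adjusted p = 0.0219), with 1 of 4 TME and 0 of 4 control Ito samples above background, and was not called under 75th percentile scaling, both normexp settings, the fit of the Ito samples only, the fixed block or without replicate 1 or 2. Sec24d, a part of the coat that carries procollagen out, was lower in TME endothelial cells (-0.61, 0.0366), and was not called under 75th percentile scaling, with the control pairs averaged or without replicate 1, 3 or 4. Between TP and TM cells, where 3.01% of all probes were called, Fkbp14 was higher in TP (0.72, 0.048), and was not called without any 1 of the 4 replicate numbers.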

How the data were processed

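Messenger RNA of 32 samples (8 groups of 4, stated by the study to be biological replicates, though nothing in the labels names separate animals, so that p-values measure the spread between these samples) was read as single channels of 16 Agilent arrays. The authors deposited, per spot and channel, the intensities of the Feature Extraction program and its call of well above background, and a value table of linear intensities that match the processed signal after quantile normalization. The log2 of these values was taken, and each column was matched to its own channel. Group, dye and number came from the labels. Where a gene had several probes, the most variable among those above background on all 4 arrays of a group stood for it. Per-sample values were given for genes fixed by name, genes called between TME and control or TP and TM, and 5 more with the widest range of group means. Values of Col4a6, Col6a5, Col7a1 and Col20a1, which are not among these named genes, were added outside this rule. Their calls are not in the counts of single calls lost under other settings.

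limma (lmFit and eBayes) was fitted to all 32 samples and 8 groups, with Benjamini-Hochberg adjustment over 55681 probes. The members, classes and gene lists were chosen with earlier results of these data known. Same-numbered samples share an array, but their deviations from the group means correlated by -0.64 to 0.40, so that the array was used as a block only as an alternative. In simulated data with 200 of 55681 probes changed, a log2 change of 1 was recovered in 48% of endothelial, 50% of Ito, 45% of Kupffer and 43% of tumor comparisons and a change of 2 in 92, 91, 95 and 95%. The changed probes were drawn only from those well above background in all 32 samples, so that these rates do not cover dimmer probes. The simulated noise was independent between samples, also between the like control endothelial samples. Alternatives were processed signal with quantile normalization, normexp (offset 50) with quantile or with loess and Aquantile normalization, scaling to the 75th percentile, a filter on dim probes, only the groups compared, the array as a block, the methods' t-test, the study's limits of 4-fold and 0.001, each replicate left out and, chosen after seeing the data, like control endothelial samples averaged and Ito and Kupffer replicate 4 left out. Probe coordinates are mm9 as deposited, and promoters are from RefSeq (GRCm38.p6). Gene names are those of the array design and may be old. The programs were R 4.3.3, limma 3.58.1, data.table (1.17.8), Python 3.11.15, numpy 2.4.6, pandas 2.3.3 and matplotlib 3.10.9.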

Additional observations from a re-analysis of the deposited data

Results flagged for a closer look

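In 17 of the 94 gene and group combinations tested, 1 of the 4 samples lay far from the other 3 by Dixon's criterion. Of these, 10 were replicate 4 of control Ito or of a Kupffer group. The criterion gives about 1 in 20 for independent normal values. That rate does not apply here, since the genes share samples and probes and some genes were chosen for their spread in these values. In control Ito replicate 4, Col3a1 was 11.31 (others 9.18 to 9.46), Col6a1 8.53 (7.47 to 7.56) and Col18a1 9.94 (8.91 to 8.93), all high, while Col4a1 was 12.01 (13.03 to 13.23), Col4a2 12.31 (13.09 to 13.22) and Col5a3 6.55 (7.21 to 7.23), all low. Col1a1 was 7.67 in control Kupffer replicate 4 (5.29 to 5.66) and 5.56 in TME Kupffer replicate 4 (7.45 to 7.64). In TME Kupffer replicate 4, Col3a1 was 9.79 (11.06 to 11.25) and Col4a1 13.79 (12.69 to 12.83).

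In TME Ito replicate 2, Col16a1 was 7.10 (5.61 to 5.84) and Col5a3 9.32 (6.64 to 6.79). In TME endothelial replicate 2, Col18a1 was 7.98 (9.26 to 9.51), Col5a3 7.76 (9.67 to 9.92) and Col6a3 6.47 (7.93 to 8.15). Col23a1 was 12.64 in control Kupffer replicate 3 (5.19 to 5.67) and 8.61 in TME Kupffer replicate 3 (4.83 to 5.39), which share an array.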

How the results depend on the processing

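Among the results run, only Col28a1 in TP against TME Kupffer cells turned direction, at -0.02 with both normexp settings, against 0.33. None of the 43 calls of a named gene with a probe above background was lost under a normalization or the filter on dim probes. Of 5 calls of Col8a2, Col12a1 and Col28a1, which have none, 3 were lost with 75th percentile scaling and 5 with either normexp setting. The main counts of collagen probes were 1 each for TME against control in endothelial, Ito and Kupffer cells, 4 for TP against TM, 6 (control) and 5 (TME) for Ito against endothelial, 6 and 2 for Ito against Kupffer, 12 and 8 for endothelial against Kupffer, and 24 and 26 for TM and TP against Kupffer cells. For processing and receptor probes they were 1, 1 and 0 for TME against control and 23 (control) and 13 (TME) for Ito against endothelial cells. Counts that moved by over 1.5 times follow, and the cause was not tested unless the setting uses fewer samples or a stricter limit.

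At the study's limit of 0.001 and 4-fold, the collagen counts were 1 for TP against TM, 2 and 0 for Ito against endothelial, 0 and 0 for Ito against Kupffer, 2 and 3 for endothelial against Kupffer and 13 and 15 for the tumors. With 75th percentile scaling, which moved the median of all probes by -0.24 to 0.62 in the comparisons between cell types, they were 1 for TP against TM, 8 for TME Ito against endothelial and 4 for TME Ito against Kupffer, and the processing count in TME Ito against control was 0. With normexp and quantile normalization they were 2 for TME against control endothelial, 1 for TP against TM and 5 for TME Ito against Kupffer, with processing counts of 3 (endothelial) and 0 (Ito). With normexp, loess and Aquantile they were 4, 1 and 6 for the same comparisons and 8 for TME Ito against endothelial, with processing counts of 4 and 0. The quantile-normalized processed signal gave 5 for TME Ito against Kupffer. The filter on dim probes gave 1 for TP against TM and 6 for TME Ito against Kupffer, with a processing count of 3 in endothelial cells.

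With only the groups compared, the counts were 5 (endothelial) and 0 (Kupffer) for TME against control, 1 for TP against TM, 11 and 2 for Ito against endothelial, 2 and 5 for Ito against Kupffer, 14 for TME endothelial against Kupffer and 1 for the change in Ito against endothelial cells, where the main count was 0. Processing counts were 7, 0 and, for TME Ito against endothelial, 7. The methods' t-test gave 4, 2 and 0 for TME against control, 1 for TP against TM and 4 processing probes in endothelial cells. With the shared array as a fixed replicate block, fitted to only the groups compared, the collagen counts were 4, 0 and 0 for TME against control and 0 for TP against TM, where that fit without a block gave 5, 1, 0 and 1, and the processing counts were 6 and 0 against 7 and 0. With it as a random block (correlation 0.0783), the processing count in endothelial cells was 3, and no collagen count moved. Same-numbered samples did not deviate together in every pair (correlations of -0.64 to 0.40, all above 0 in endothelial cells), so a call lost under the block is not described as weaker.

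Averaging the like control endothelial samples gave 3 for control Ito against endothelial, 3 against Kupffer and 5 for endothelial against Kupffer, with processing counts of 0 for TME against control endothelial and 14 for control Ito against endothelial. Without 1 replicate number at a time, or without replicate 4 in Ito and Kupffer cells only, the collagen counts ranged from 1 to 3 (endothelial), 1 to 5 (Ito) and 1 to 1 (Kupffer) for TME against control, 1 to 3 for TP against TM, 3 to 6 and 1 to 7 for Ito against endothelial, 1 to 5 and 0 to 5 for Ito against Kupffer, 7 to 14 and 5 to 10 for endothelial against Kupffer, and 19 to 25 and 22 to 26 for the tumors. Processing counts ranged from 0 to 4, 0 to 10 and 0 to 3 for TME against control and from 13 to 28 and 5 to 22 for Ito against endothelial cells. Of the 48 calls of named genes, 15 were lost with only the groups compared and 13 without replicate 1, and fewer in the other settings run on all of them. Of the 7 calls between TME and control or TP and TM, 6 were lost with the array as a fixed block and 4 with the methods' t-test. Dim probes limit what can be read, since a fold from a group below background is only a bound.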
